A study of Homo sapiens with 10 samples.

Results

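Cysteine tRNAs carry cysteine to the ribosome and read the codons UGC and UGU. In the tRNA tables of this iCLIP series, 37 of 631 tRNA rows belonged to them, chosen by name alone: every row named for cysteine, without the rows marked as mitochondrial-like. The anticodon was GCA in 36 rows and ACA in 1 row. iCLIP crosslinks RNA to a protein in living cells with UV light and sequences the RNA that comes down with it. The protein was PUS7, pulled down by its FLAG tag. There were 3 libraries of HEK 293T cells (a transformed embryonic kidney line) with a PUS7 knockout and FLAG-tagged PUS7, and 3 libraries of 293T PUS7 knockout cells without the tagged protein. H9 cells (a human embryonic stem cell line) gave 2 libraries of each kind. All groups thus lacked endogenous PUS7 by label, and anti-FLAG beads were used on the knockout lysates too, which makes those libraries mock controls. The labels give passages 20 to 25 for 293T and 40 to 45 for H9. The labels do not say how many knockout clones there were or how the tagged PUS7 was introduced. No kidney or stem cell marker is among the tRNA rows, so the labelled cell types were not checked against markers, and the level of PUS7 was not analysed here.

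PUS7 turns uridine into pseudouridine, an isomer with a different link between base and sugar, and acts alone, without a guide RNA. It recognises short sequences in tRNA and mRNA. In stem cells it is known for modifying short tRNA fragments that begin with a run of guanines, and cysteine tRNAs belong to the tRNAs that give such fragments, together with alanine and valine tRNAs. Human genomes hold many cysteine tRNA genes, most of them in a cluster on chromosome 7. Their sequences were not used here.

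The values in the tables were level numbers instead of counts, so only presence could be read from them: a row counts as detected if at least 1 read was recorded. How deeply the libraries were sequenced is unknown, and a row not detected may have been below what a library could show. The rows fell into text width classes, numbered from 1 for the narrowest. The first H9 knockout library supplied the classes, a row's class being its level number in that table. Every level of a tRNA row there was read as no reads, written at a different text width. That library may have had no tRNA reads, or its table may not have been filled, and results are given with and without it. Over all 631 rows, FLAG-PUS7 libraries detected 458 to 479 rows, the 4 other knockout libraries 133 to 232. Nothing in the labels says that the replicates of a group came from separate cultures, so the spread behind each p-value may be technical.

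By symbol, 29 of the 37 cysteine rows matched a RefSeq tRNA gene and 2 a tRNA pseudogene on GRCh38.p14. No match was found for 6 rows. The 29 genes were 70 to 73 bases long, 26 of them 72 bases. On chromosome 7, 18 genes lay within 397.6 kb, from TRC-GCA1-1 (149310190 to 149310261) to TRC-GCA9-4 (149707669 to 149707740). Of these, 6 lay within the transcribed pseudogene ZNF767P (149547154 to 149624790), a relative of the zinc finger genes. A second group of 5 genes spanned 292.9 kb of chromosome 17, from TRC-GCA14-1 (38861684 to 38861755) to TRC-GCA2-4 (39154491 to 39154562). A pair, TRC-GCA6-1 (132229100 to 132229171) and TRC-GCA9-1 (132231798 to 132231869), lay on chromosome 3. The other 4 genes stood alone: TRC-GCA7-1 within the protein-coding gene FNBP1L on chromosome 1 (93516277 to 93516349), TRC-GCA2-1 on chromosome 4 (123508850 to 123508921), TRC-GCA8-1 on chromosome 14 (72962971 to 72963042) and TRC-GCA5-1 on chromosome 15 (79744655 to 79744727). The gene table gives no exons or strand, so that exon and intron were not told apart.

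The first comparison asked whether the tagged enzyme pulled down cysteine tRNAs beyond the mock control. Nearly every cysteine tRNA gene was detected with FLAG-PUS7, and nearly none in the knockouts. Of the 29 genes, the 293T FLAG-PUS7 libraries detected 28, 28 and 27, and the 293T knockout libraries 1, 0 and 0. The H9 FLAG-PUS7 libraries detected 27 and 26 genes, and both H9 knockout libraries 0. The 0 of the first H9 knockout library follows from the reading of its table, so that H9 had 1 knockout library able to show reads. The FLAG-PUS7 and knockout libraries did not overlap in either line, with or without it. High detection with FLAG-PUS7 was common to tRNA genes: of all 408 matched genes, 97.1% to 97.8% were detected in each FLAG-PUS7 library, and these did not overlap the knockouts either. The knockout libraries of 293T detected 54.2%, 32.6% and 30.4% of the 408 genes, and the second of H9 53.4%. Of the 29 cysteine genes, the share detected was 95.4% ± 1.99 (SD, n = 3) in 293T with FLAG-PUS7 against 1.15% ± 1.99 (SD, n = 3) in 293T without it. In H9 it was 91.4% ± 2.44 (SD, n = 2) with FLAG-PUS7 and 0% in the second knockout library. The difference in the share of genes was 92.8 points over both lines for cysteine, also without the first H9 knockout library. For all 408 genes it was 64.5 points, and 51.2 points without that library.

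Counted over all 37 cysteine rows, 31, 29 and 28 were present in 293T with FLAG-PUS7, and 28 and 26 in H9 with FLAG-PUS7. The knockout libraries detected 1 row in the first 293T library and 0 in the others. The difference in the share of rows was 78.4 percentage points in 293T and 73.0 points in H9, or 75.7 points with both lines weighted equally. Leaving out the first H9 knockout library gave again 75.7 points, because the other H9 knockout library detected no cysteine row either. If only level 1 is read as no reads, which takes every class 2 row as detected in all libraries, the cysteine difference was 43.7 points. No value over all 631 rows is given for that reading. Under the reading that gave 75.7 points for cysteine, all 631 rows differed by 52.3 points. Dropping H9 knockout library 1 lowered the latter to 43.1 points. The median difference of a single row was 100 points among the cysteine rows and 58.3 points among all rows. These shares are a description, since the rows were chosen with earlier results of these data known.

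**Figure D1:**
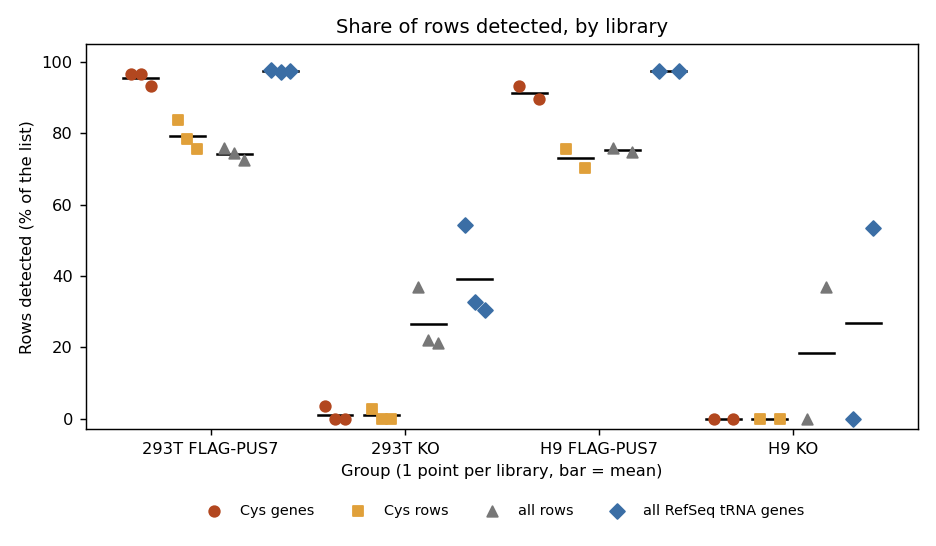
Share of rows detected (percent of the list, vertical axis) in each library, 1 point per library with the group mean as a bar, for the 29 cysteine tRNA genes, the 37 cysteine rows, all 631 rows and the 408 of these that match a RefSeq tRNA gene. In the knockout groups the cysteine points lie at 0 to 3.45%, while all rows reach 36.8% in the first 293T and the second H9 knockout library.

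Every FLAG-PUS7 library of the 5 detected the same 25 of the 37 cysteine rows, against 67.4% of all rows. All 25 were RefSeq tRNA genes of the GCA anticodon. In no knockout library were 24 of them, whereas 20.3% of all 631 rows showed this pattern of all FLAG-PUS7 and no knockout libraries. With only level 1 read as no reads, 13 cysteine rows showed it, all of class 1. Rows were tested singly, with the labels FLAG-PUS7 and knockout permuted within each line in 120 ways. Each of the 24 reached the smallest possible exact two-sided permutation p of 0.0167. After Benjamini-Hochberg adjustment over the 513 rows detected in at least 1 library, their p was 0.0668 and none passed. Without the first H9 knockout library, the same exact permutation test gave an adjusted p of 0.0668 and again none passed. Over all rows, 0 passed, 128 had an unadjusted p under 0.05, which is 25% of those tested, and 0.0% passed after adjustment. For rows at the smallest p to pass, at least 172 would have had to reach it. Neither line can pass by itself, the smallest p being 0.1 in 293T and 0.333 in H9.

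**Figure D2:**
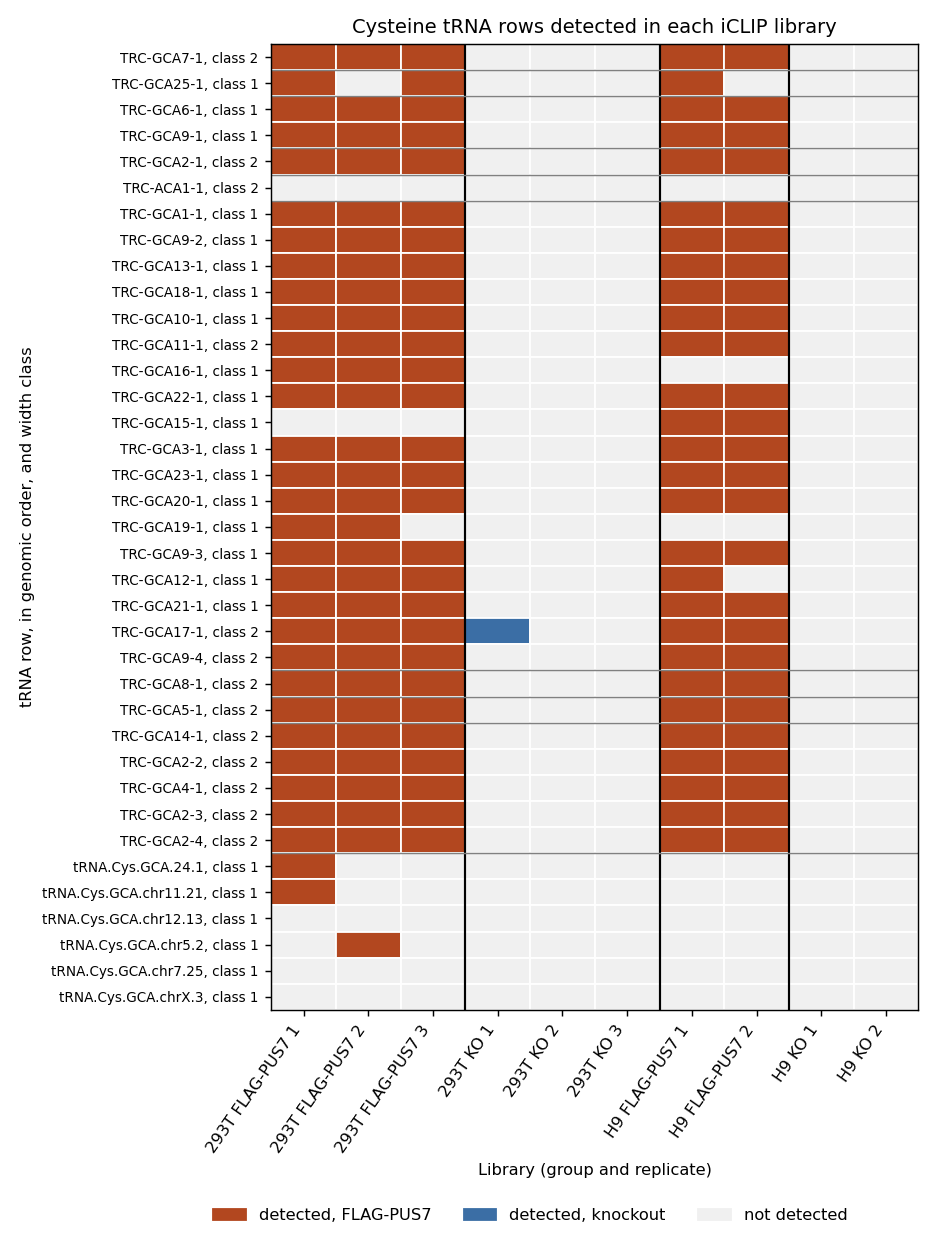
Detection of each of the 37 cysteine rows (vertical axis, in genomic order with its width class, unmatched rows last) in the 10 libraries (horizontal axis, grouped by line and by presence of FLAG-PUS7). Filled cells are detected, grey cells not. The only filled cell in a knockout column is TRC-GCA17-1 in the first 293T knockout library, and 25 rows are filled in all 5 FLAG-PUS7 columns.

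The exception among the 25 was TRC-GCA17-1 on chromosome 7 (149691181 to 149691252). Every FLAG-PUS7 library held it, as did the first 293T knockout library, but not in 293T knockout libraries 2 and 3 or in either H9 knockout library. In that knockout library it stood at the lowest level above no reads of its width class, a level it shared with 17 other rows. Its difference was 83.3 points (exact permutation p = 0.0667, adjusted p = 0.142 over all rows). It was the sole cysteine row of the 37 found in any knockout library, where 47.7% of all rows were found in at least 1. The first 293T knockout library was also the one with the most rows detected in 293T, 232 against 139 and 133.

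Some copies were detected in only part of the FLAG-PUS7 libraries: 8 of the 37 cysteine rows, against 13.9% of all rows. Among them, 4 were tRNA genes, all in the chromosome 7 cluster. TRC-GCA12-1 (149646955 to 149647026) was detected in the 3 libraries of 293T and in the first of H9, a difference of 75 points (exact permutation p = 0.05, adjusted p = 0.142). TRC-GCA19-1 (149613065 to 149613136), within ZNF767P, was detected in the first and second libraries of 293T and in no other (33.3 points, exact permutation p = 0.4, adjusted p = 0.617). The other two differed between the lines and are described next. The pseudogene TRC-GCA25-1, within the gene TBC1D5 on chromosome 3 (17699900 to 17699972), was detected in libraries 1 and 3 of 293T and library 1 of H9 (58.3 points, exact permutation p = 0.2, adjusted p = 0.318). The rows tRNA.Cys.GCA.24.1 and tRNA.Cys.GCA.chr11.21 were detected in the first 293T library alone, and tRNA.Cys.GCA.chr5.2 in the second alone.

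More of these scattered detections than not stood at the lowest level above no reads, which is a place in a sorting and not an amount. Of the 17 detections of the 8 rows in FLAG-PUS7 libraries, 9 were at the lowest level above no reads of their width class. Among the 125 detections of the 25 rows found in all FLAG-PUS7 libraries, 2 were at that level, namely TRC-GCA13-1 and TRC-GCA21-1 in the third 293T library. The 25 rows are not a like set, since 13 were in class 1 and 12 in class 2. In class 2 only 1 or 2 rows of all isotypes held the lowest level in each FLAG-PUS7 library. In width class 1, to which the 8 rows belong, the lowest level was also the most common one in each of the 5 FLAG-PUS7 libraries, held by 10 to 26 rows. Level numbers were taken to sort texts and not amounts, so that this level is the first in that sorting. Whether it stands for a single read was not tested.

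The comparison of the lines asked whether stem cells and kidney cells yielded the same cysteine copies. TRC-GCA15-1 (chromosome 7, 149584725 to 149584796), within ZNF767P, was detected in both H9 FLAG-PUS7 libraries and in no 293T library. TRC-GCA16-1 (chromosome 7, 149546540 to 149546611) showed the reverse, in all 3 FLAG-PUS7 libraries of 293T and in no H9 library. It ends 542 bases before ZNF767P and lies 38.1 kb from TRC-GCA15-1, with TRC-GCA22-1 (149556711 to 149556780), found in all 5, between them. The H9-minus-293T difference in effect was 100 points for TRC-GCA15-1 and -100 points for TRC-GCA16-1 (exact permutation p = 0.1 each, adjusted p = 1.0 over all rows). Line labels were permuted in 100 ways, separately among FLAG-PUS7 and among knockout libraries. The pattern of TRC-GCA15-1 was shown by 0.792% of all rows and that of TRC-GCA16-1, among FLAG-PUS7 libraries, by 0.475%. No row of any isotype passed this exact permutation test of the lines, with 0 (0.0%) after adjustment and 0 at an unadjusted p under 0.05. For TRC-GCA15-1, 1 of its 2 detections was at the lowest level above no reads, and for TRC-GCA16-1, 2 of its 3.

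**Figure D3:**
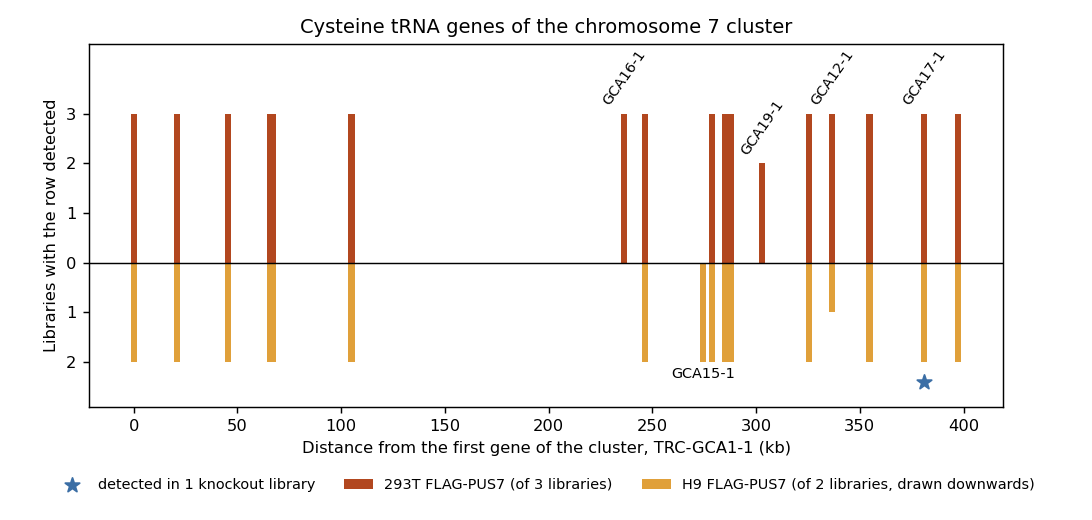
The 18 cysteine tRNA genes of the chromosome 7 cluster by distance from the first gene (kb, horizontal axis); bars upwards count the 293T FLAG-PUS7 libraries and bars downwards the H9 FLAG-PUS7 libraries with the row detected, and the star marks the gene found in 1 knockout library. TRC-GCA16-1 has a bar only upwards over 3 libraries, TRC-GCA15-1 only downwards over 2, and 14 of the 18 genes have full bars on both sides.

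By genomic position, the chromosome 7 cluster held all cysteine tRNA genes whose detection varied among FLAG-PUS7 libraries. Of its 18 genes, the 293T FLAG-PUS7 libraries detected 17, 17 and 16, and the H9 FLAG-PUS7 libraries 16 and 15. Its knockout counts were 1 in the first 293T library and 0 in the others. The chromosome 17 group was detected in full, 5 of 5 genes, in every FLAG-PUS7 library and in no knockout library. The same held for the pair on chromosome 3 and for the 4 genes standing alone. Full detection was shared by all class 2 genes, since 109 of 109 matched class 2 genes of all isotypes were detected in every FLAG-PUS7 library. Under the assumed coding rule the class follows the largest count of a row, so such detection is largely given with the class. The class 2 row TRC-ACA1-1, detected in no library, departs from that rule. The groups also differed in width class: 15 of the 18 chromosome 7 genes were in class 1, and all 5 of the chromosome 17 genes in class 2. The 4 genes standing alone were in class 2 as well. Both genes of the chromosome 3 pair, although detected in full, were in class 1. The part of the class in these differences was not tested. Of the class 2 genes on chromosome 7, TRC-GCA11-1, TRC-GCA17-1 and TRC-GCA9-4, all were detected in every FLAG-PUS7 library.

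Copies of one mature sequence share a number in the gene symbol, and reads from them cannot be told apart within the mature tRNA. TRC-GCA2-1 to TRC-GCA2-4 are 4 such copies, 1 on chromosome 4 and 3 on chromosome 17. TRC-GCA9-1 to TRC-GCA9-4 are 4 copies, 1 on chromosome 3 and 3 on chromosome 7. Each FLAG-PUS7 library held all 8, and no knockout library held any. Their deposited values were not copies of each other. The 4 TRC-GCA2 rows held 4 distinct values in each FLAG-PUS7 library, and the TRC-GCA9 rows held 4 in all but the second 293T library, where they held 3. TRC-GCA9-4 was in width class 2 and its sister copies in class 1. The rule by which the authors assigned reads matching several copies was not given. Between rows of different number, TRC-GCA6-1 and TRC-GCA10-1 had the same value in the first and second 293T FLAG-PUS7 libraries, and TRC-GCA20-1 and TRC-GCA22-1 in 293T libraries 2 and 3. Whether rows of a set share reads was not tested.

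The remaining 4 rows were detected in no library, as were 18.7% of all rows. They were the single row of the ACA anticodon, TRC-ACA1-1, which RefSeq lists as a pseudogene of 176 bases on chromosome 5 (152609036 to 152609211), and the unmatched rows tRNA.Cys.GCA.chr12.13, tRNA.Cys.GCA.chr7.25 and tRNA.Cys.GCA.chrX.3. None of the 7 class 1 cysteine rows without a match to a tRNA gene was detected in all FLAG-PUS7 libraries, against 13 of the 17 class 1 cysteine genes.

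Width class moved with detection in the knockouts and bears on how the cysteine rows compare with others. Because the class is taken to follow the largest count of a row, comparisons within a class are a description only. In class 1, with 24 cysteine rows, knockout libraries detected at most 1.21% of all 248 rows, so that a class 1 row absent from the knockouts differed little from its class. With FLAG-PUS7, 66.7% to 79.2% of the class 1 cysteine rows were detected in 293T, against 31.0% to 39.5% of all class 1 rows. In H9 it was 66.7% and 58.3%, against 39.5% and 36.7%. Among class 1 rows matched to tRNA genes, 13 of 17 cysteine genes and 34 of 59 genes of all isotypes were in every FLAG-PUS7 library. Of all class 1 rows, 16.9% were in all FLAG-PUS7 and no knockout libraries.

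In class 2, knockout libraries left more to compare. Of the 117 class 2 rows that are not cysteine, the 293T knockout libraries detected 23, 19 and 11, and the second H9 knockout library 43. Of the 13 cysteine rows of this class, the counts were 1, 0, 0 and 0. In at least 1 knockout library were 1 of 13 cysteine rows (7.69%) and 59 of 117 other rows (50.4%). Of all class 2 rows, 50.8% were in all FLAG-PUS7 and no knockout libraries, and of the 13 cysteine rows 11 were. Among the 9 isotypes with at least 5 class 2 rows, alanine (1 of 9) and proline (3 of 20) were close to cysteine in this share, and the others ranged from 2 of 8 for threonine to 9 of 9 for initiator methionine. In the first 293T knockout library, cysteine, alanine, threonine, asparagine and phenylalanine had 1 row each and lysine 0 of 15. There, proline had 2 rows, initiator methionine 4 and glutamine 6. In the second H9 knockout library, cysteine, alanine, proline and threonine had none, while 12 of 13 glutamine, 9 of 9 initiator methionine, 10 of 15 lysine and 7 of 10 phenylalanine rows were detected. The difference between isotypes was not tested.

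**Figure D4:**
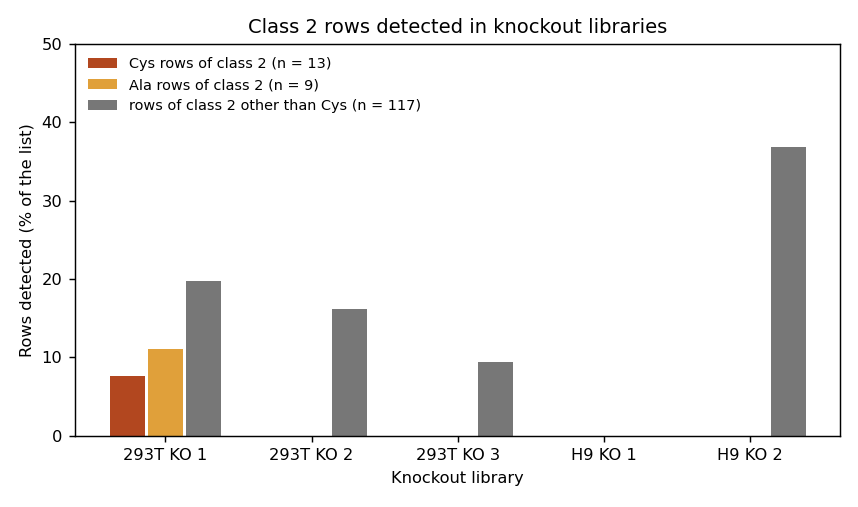
Share of width class 2 rows detected (percent, vertical axis) in each of the 5 knockout libraries, for the 13 cysteine rows, the 9 alanine rows and the 117 rows that are not cysteine, which include the alanine rows. Cysteine has 1 bar above 0, at 7.69% in the first 293T library, while the rows other than cysteine reach 36.8% in the second H9 library.

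Set beside the other isotypes, 24 of 29 cysteine genes (82.8%) were in all FLAG-PUS7 and in no knockout libraries, against 25.7% of the 408 genes of all isotypes. Of the 21 isotypes with at least 5 genes, proline was higher with 17 of 20 (85.0%), and threonine followed with 12 of 20 (60.0%). Alanine and valine, whose tRNAs also give fragments that begin with guanines, had 13 of 31 (41.9%) and 5 of 27 (18.5%). The isotypes also differed in width class. Of the cysteine genes 17 were in class 1 (58.6%) and 12 in class 2, with none in a wider class. Of the alanine genes 10 were in class 3 and 1 in a wider class, and of the valine genes 17 and 5. The knockout libraries other than the first of H9 detected 34.9% to 72.9% of all class 3 rows, but at most 1.21% of class 1 rows. Of all genes 14.5% were in class 1, of the alanine genes 38.7% and of the proline genes 0%. The 20 proline genes were all in class 2. By share in class 1, cysteine again stood 2nd of the 21 isotypes, behind tryptophan with 7 of 7. The share of the isotype and that of the width class in the detection pattern were not separated by a test.

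**Figure D5:**
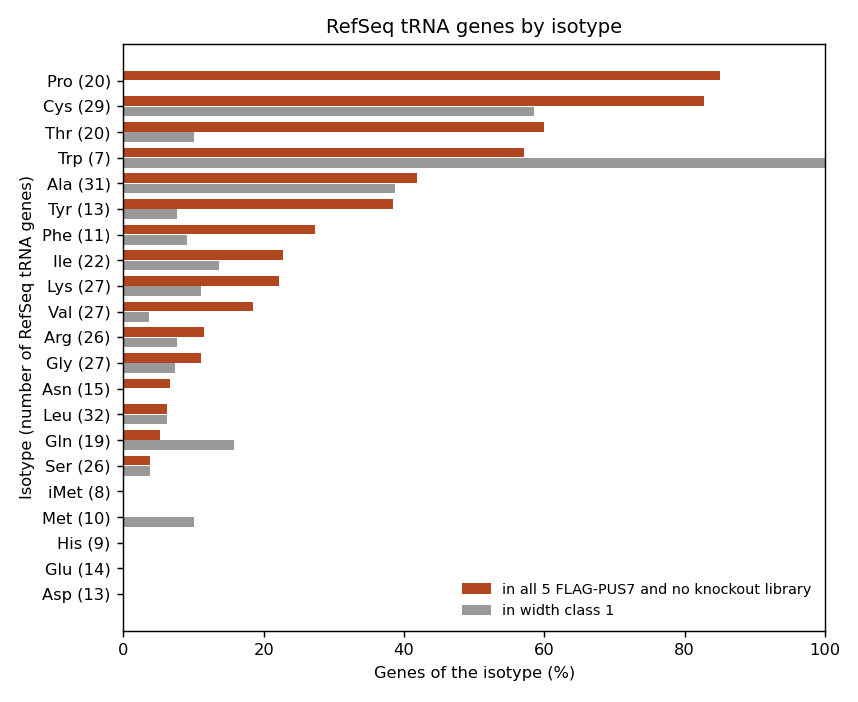
RefSeq tRNA genes of the 21 isotypes with at least 5 genes (vertical axis, number of genes in parentheses), with the percentage in all 5 FLAG-PUS7 and no knockout libraries and the percentage in width class 1 (horizontal axis). Cysteine has 82.8% and 58.6%, proline 85.0% and 0%, and tryptophan 57.1% and 100%.

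The peak lists gave a further view of FLAG-PUS7 libraries, with no list of a knockout library used here. The authors named these lists as being without tRNA, yet the lists hold peaks at tRNA genes, and what was removed is not stated. Counts of peaks at tRNA genes may therefore not be complete. A peak overlapped a cysteine tRNA gene in 2 cases, 1 in each line. In the first 293T list, the bin 39154401 to 39154600 of chromosome 17, minus strand, covered all 72 bases of TRC-GCA2-4, with a signal of 12 and a p-value by the authors of 0.00257. It ranked 88th of 120 peaks, in a list with a median signal of 20. In the first H9 list, the bin 149415001 to 149415200 of chromosome 7, minus strand, covered 63 bases of TRC-GCA11-1, with a signal of 9 and a p-value by the authors of 8.16e-07. It ranked 229th of 1605 peaks, in a list with a median signal of 3. The lists of 293T libraries 2 and 3 and H9 library 2 had no peak at a cysteine gene. Neither peak recurred in another list. Of the 29 cysteine genes 2 (6.9%) had a peak in any list, against 27.3% of the 433 RefSeq tRNA genes with an anticodon in their symbol, 5 of 33 alanine and 4 of 28 valine genes. Both genes were class 2 rows that every FLAG-PUS7 library and none of the knockouts detected. Signals are not scaled for depth and were not compared between lists.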

How the data were processed

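The tables held iCLIP reads per tRNA row for 10 libraries, 293T and H9 cells with a PUS7 knockout, with or without FLAG-PUS7. Per the submitters' processing notes, Bowtie, SAMtools, bedtools and hg38 were used, without versions or roles. Per the labels' protocols, complexes were crosslinked at 254 nm with 200 mJ/cm2, pulled down on anti-FLAG beads and sequenced for 50 cycles. The deposited tRNA values are level numbers, with every whole number from 1 to the maximum present in all 10 tables. The leading run of levels with rising width class was read as no reads and any higher level as detected, a reading made after the tables were seen. It returned tables simulated by the same coding rule without error, which cannot show whether the deposited ones follow that rule. At least 1 row, TRC-ACA1-1, departs from it, being of class 2 but detected in no library. In the deposited peak lists the authors gave a signal per peak and a p-value, whose test is not stated, and a further value on the natural log scale, which was not used.

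Rows were compared by exact two-sided permutation tests in Python 3.11.15 with numpy 2.4.6, over 120 assignments within lines, weighted equally, with Benjamini-Hochberg adjustment over the 513 rows detected in at least 1 library and a threshold of 0.05. The cysteine rows as a list were given no p. The members and lists were chosen with earlier results of these data known. Named copies are those found in any knockout library, those varying among FLAG-PUS7 libraries, the ACA row, those with a peak, and the ends of each genomic cluster (neighbours under 1 Mb apart). TRC-GCA10-1, TRC-GCA13-1, TRC-GCA20-1, TRC-GCA21-1 and TRC-GCA22-1 were named outside this rule, after their values were seen. Genes were matched by symbol to the RefSeq table of GRCh38.p14, 1-based, and a peak was counted at an overlap of at least 1 base. Depth is unknown, and no fold change is given. Count tests and gene sequences were not used.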

Additional observations from a re-analysis of the deposited data

How the results depend on the processing

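Leaving out each library in turn, the first H9 knockout included, kept the cysteine difference between 74.3 and 77.0 points, the number of cysteine rows in all FLAG-PUS7 and no knockout libraries between 24 and 25, and the rows passing after adjustment at 0, for FLAG-PUS7 against knockout and between lines (exact permutation tests, with 128 to 163 rows at an unadjusted p under 0.05 for the first and 0 for the second). Pooling all libraries left 0 rows passing and 128 unadjusted. Reading only level 1 as no reads, which takes the class 2 rows as detected everywhere, gave a cysteine difference of 43.7 points, 13 such cysteine rows and 42 rows at an unadjusted p under 0.05. Over the 29 RefSeq genes alone the cysteine difference was 92.8 points. With the authors' p-value under 0.001, 1 of the 2 peaks at cysteine genes remained, that of TRC-GCA11-1. The line difference of TRC-GCA25-1 turned from -16.7 to 33.3 points without the second H9 FLAG-PUS7 library, where it was not detected, and was -66.7 points without the first. With values taken around the mean of their group in each row, same-numbered libraries had correlations over rows from -0.0245 to 0.0369. These do not describe how far FLAG-PUS7 and knockout libraries detected the same rows. In H9 the values were 0.0341 for same and -0.0341 for other numbers, mirrors that 2 libraries per group force. With so few libraries, these values cannot decide whether the numbers pair the libraries. With a replicate block, 0 rows passed and 0 had an unadjusted p under 0.05, since its smallest exact permutation p is 0.0625, and the cysteine difference was 75.7 points. A match of peak and gene strand was not run, because the gene table gives no strand. Depth limits every absence reported here.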

Other observations

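The chromosome 7 cluster also holds tRNA genes of other isotypes among the cysteine copies. TRS-AGA5-1, a serine tRNA gene (149608376 to 149608447) in width class 1 that lies within ZNF767P between TRC-GCA20-1 and TRC-GCA19-1, was present in each of the 5 FLAG-PUS7 libraries and absent from every knockout library, as were most of its cysteine neighbours. TRY-GTA11-1, a tyrosine tRNA pseudogene (149356654 to 149356729), was detected in no library. TRC-ACA1-1 was the sole row of class 2 or wider that no library detected, whereas 117 of the 118 rows found in no library were in class 1. A class that follows the largest count of a row would not allow this. Why the row departs from that rule was not tested.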
